A study of Mus musculus with 4 samples.

Results

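The 8 genes described here, Tcp1, Cct2, Cct3, Cct4, Cct5, Cct6a, Cct7 and Cct8, encode the somatic subunits of the CCT chaperonin (also called TRiC), and Acat3 is added because its exons lie opposite the last exon of Tcp1. These 9 genes were taken by symbol from 50600 genes of the count tables. The data are RNA sequencing of mouse Th2 cells (the T helper subset known for interleukin-4) of strain C57BL/6NJ, in 4 libraries that the labels call biological replicates 1 to 4 of 1 group. The labels give separate biosamples under 1 donor identifier, primary cells with sex not collected and age unknown, and 48 hours is the time written in the file headers. The design has no second condition, so the genes were compared with each other, with the genes opposite them and between replicates. P-values measure only the spread between these libraries.

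CCT is a cytosolic folding machine made of a pair of stacked rings, each holding 1 copy of every subunit, that closes over a polypeptide and opens again as it hydrolyses ATP. Actin and tubulin are its best known substrates, and they reach it in part through prefoldin, a smaller chaperone that hands over nascent chains. Dividing lymphocytes, which build cytoskeleton and cell cycle regulators, need the complex.

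The subunits are related proteins, and the stretch that codes for their nucleotide-binding motif shows this best. The motif was searched in frame, on the coding strand and with the last base of each codon free, in the longest coding sequence of each gene (GENCODE vM21 transcripts), and it was present once in 8 of 8 subunits, against 1.77% of 21765 genes with a coding sequence. It was absent from Acat3, an acetyl-CoA acetyltransferase. The annotation gives Cct6a no coding part, so its longest open reading frame was used. Each line gives the motif in capitals with coding bases on both sides, 5′ to 3′:
Tcp1: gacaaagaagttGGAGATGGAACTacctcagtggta
Cct2: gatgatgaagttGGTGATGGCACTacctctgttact
Cct3: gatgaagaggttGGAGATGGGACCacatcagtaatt
Cct4: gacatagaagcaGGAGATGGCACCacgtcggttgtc
Cct5: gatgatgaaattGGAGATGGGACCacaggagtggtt
Cct6a: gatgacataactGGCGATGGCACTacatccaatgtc
Cct7: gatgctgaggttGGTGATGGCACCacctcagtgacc
Cct8: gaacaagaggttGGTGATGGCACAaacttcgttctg
Outside such stretches the transcripts have diverged. No run of 50 bases was shared between the annotated transcripts of any of the 8 subunits, so a read of that length tells them apart. Cct2, Cct5 and Cct8 shared no such run with any gene at another locus, and for Cct3, Cct4, Cct6a and Cct7 the share of runs found elsewhere was 0.364% to 2.92%. In Tcp1 it was 6.17%, and 290 of its 5171 runs were found in Acat2, the paralog of Acat3. Acat3 itself shared 42.6% of its runs with Acat2, with 97.7% identical bases over 1194 aligned coding bases. The counting command in the file headers carries no option for reads with several mapping places, so counts of Acat3, Acat2 and the end of Tcp1 are uncertain to that extent.

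Counts per library totalled 1785970 to 2271993, and genes with an exon overlap on the other strand, 16.2% of all genes, took 92.5% to 94.5% of them. A count in the tables is therefore read here as the count assigned to that gene's row, not as the level of its own transcript. The strand setting of the counting was 1, per the file headers, and the strand that the library protocol reads is not given in the sources used here. With the opposite setting, only reads in exons of both genes could pass to the other gene of a pair. Other counted reads would leave the pair, and reads of the opposite strand, not counted here, would enter. Rows without an overlap would change too. The order of the genes and the ratios within pairs therefore hold for this setting only. Over genes with a count in either library, the chi-square statistic divided by its degrees of freedom was 1.88 to 14 in the 6 pairs of libraries, so no pair was counted as 1 sample. Of 8 T cell markers 6 reached 1 TPM (count per exon length, scaled to the library) in all libraries and of 7 Th2 markers 6 did (Il4 with 38, 27, 37 and 24 counts), while Il5 had 0 counts in every library. Of 4 macrophage markers 2 did (Csf1r, which has an opposite overlap, and Cd68, on only 2, 3, 5 and 2 counts) and of 2 CD8 markers 0. Csf1r had a mean of 196 TPM, where the highest T cell marker had 168 and the highest Th2 marker 59.3. Each of these has an opposite overlap. Of the markers without one, the highest T cell marker had 15.5 TPM and the highest Th2 marker, Il4, 18.45. Of the T cell markers 6 of 8 have no opposite overlap, and of the Th2 markers 3 of 7. The B cell marker Cd79a also reached 1 TPM in all libraries, on 14, 8, 4 and 7 counts, while Cd79b, Ms4a1 and the macrophage marker Adgre1 were at 0. In bulk RNA, fewer cells of a type and less RNA per cell cannot be told apart.

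All 8 subunits reached 1 TPM in all 4 libraries, as 13.3% of all genes and 45.8% of those with an opposite overlap did. The levels were far from equal. Tcp1, the alpha subunit and the gene after which the family is named, had 3011, 2746, 2909 and 2008 counts in replicates 1 to 4, or 396, 384, 393 and 354 TPM (mean 382 ± 18.9, SD, n = 4). It stood above each of the other 7 subunits in every library without overlap, and was 15.2, 17.8, 32.9 and 16.0 times their median TPM. It alone held 74.5% (95% Wilson interval 73.1 to 75.8), 76.4% (75.0 to 77.7), 82.1% (80.8 to 83.3) and 75.4% (73.8 to 77.0) of the counts of the 8 subunits. These intervals cover counting error only.

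Acat3 was higher still. This row had 12654, 12203, 12793 and 8691 counts, or 3565, 3664, 3708 and 3290 TPM (mean 3557 ± 188, SD, n = 4), which placed it 35th by mean TPM, while Tcp1 was 447th. Replicate 4 was lowest for both. Acat3 made up 0.557%, 0.578%, 0.580% and 0.487% of all counts, against 0.178%, 0.170%, 0.161% and 0.149% for the 8 subunits summed. Its close paralog Acat2, 2487 bp away on the same strand and coding for a cytosolic acetyl-CoA acetyltransferase, had 2, 4, 4 and 5 counts. Acat1, the mitochondrial enzyme of ketone body and isoleucine metabolism, had 20, 27, 12 and 18. The 3 acetyltransferase genes were thus far apart in counts. Acat3 is the one that lies opposite a subunit gene, and whether that bears on its counts was not tested.

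**Figure D1:**
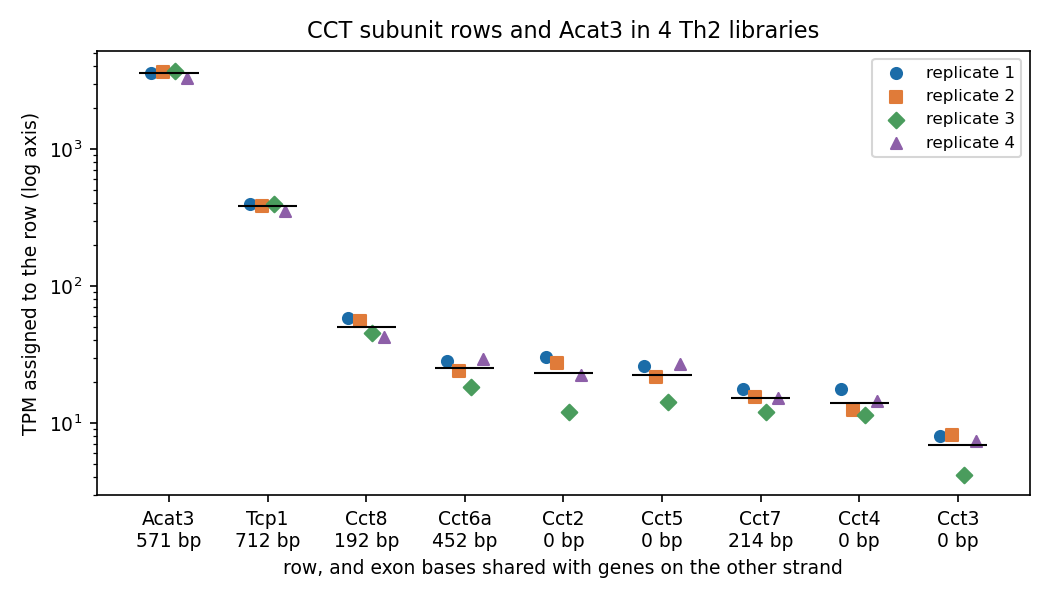
TPM (log axis) assigned to Acat3 and the 8 CCT subunits, ordered by mean, with 1 symbol per replicate and a line at the mean of 4 libraries. Exon bases shared with genes on the other strand stand under each name; Acat3 and Tcp1 lie above the other 7, and Cct3 is lowest.

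Cct8, the theta subunit, came next, at 58.8, 55.4, 45.3 and 42.3 TPM (275, 243, 206 and 147 counts). Its lowest library was above the highest of the 6 subunits that follow. Cct6a, a zeta subunit whose paralog Cct6b is used in testis, had 28.5, 24.1, 18.2 and 29.2 TPM from 156, 124, 97 and 119 counts. Cct2, the beta subunit, had 30.5, 27.3, 11.96 and 22.2 TPM from 118, 99, 45 and 64 counts, and Cct5, the epsilon subunit, 26.1, 21.6, 14.3 and 26.9 from 111, 86, 59 and 85. The means of these 3 (25.0 ± 5.05, 23.0 ± 8.10 and 22.2 ± 5.78) lay within each other's spread.

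Lower stood Cct7, the eta subunit, at 17.8, 15.5, 11.9 and 15.3 TPM (183, 149, 119 and 117 counts), and Cct4, the delta subunit, at 17.8, 12.4, 11.5 and 14.6 (113, 74, 71 and 69 counts). Their means, 15.1 ± 2.43 and 14.1 ± 2.79, also lay within each other's spread. Cct3, the gamma subunit, was lowest at 7.99, 8.18, 4.16 and 7.39 TPM (77, 74, 39 and 53 counts; mean 6.93 ± 1.88), below the lowest library of every other subunit. The 2 testis paralogs were near the floor of 3 counts that a count of 0 allows, Cct6b with 6, 3, 2 and 3 counts and Cct8l1 with 0, 2, 0 and 0.

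Part of this order came with the exon length by which counts were divided. The coding sequences are of nearly 1 length, 1599 to 1671 bases, but the union of exons in the tables ran from 2557 bp for Cct2 to 6778 bp for Cct7, with 6370 bp for Cct3. Cct2, Cct3, Cct4 and Cct5, the 4 subunits that share no exon base with a gene on the other strand, had mean counts of 81.5, 60.8, 81.8 and 85.3. Their highest over lowest count was 1.53, 1.34, 1.82 and 1.60 in replicates 1 to 4, but 3.82, 3.33, 3.43 and 3.64 in TPM. Per length they were thus further apart than in counts.

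The other 4 subunits each share exon bases with a gene on the other strand. The 712 bp of Tcp1 (chr17, plus strand, 12915701 to 12925067, mm10) are in 2 places: its last exon runs into the last exon of Acat3 (minus strand, 12923833 to 12940402) over 571 bp, tail to tail, and its first exons share 141 bp with Mrpl18, a mitochondrial ribosomal protein gene, head to head. Cct6a (chr5, plus, 129786998 to 129846371) shares 452 bp of its first exon with Psph, the last enzyme of serine synthesis. Cct7 (chr6, plus, 85451514 to 85468475) shares 214 bp with Pradc1, also head to head, and Cct8 (chr16, minus, 87483326 to 87495873) shares 192 bp tail to tail with Usp16, a deubiquitinase of histone H2A. On their own strand Gm26130 lies in Tcp1 exons (138 bp) and Snora15 in part in Cct6a exons (102 bp), both with 0 counts in all 4 libraries. Counts of Tcp1 and Cct6a over these bases are uncertain, as a read there lies in exons of both genes.

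**Figure D2:**
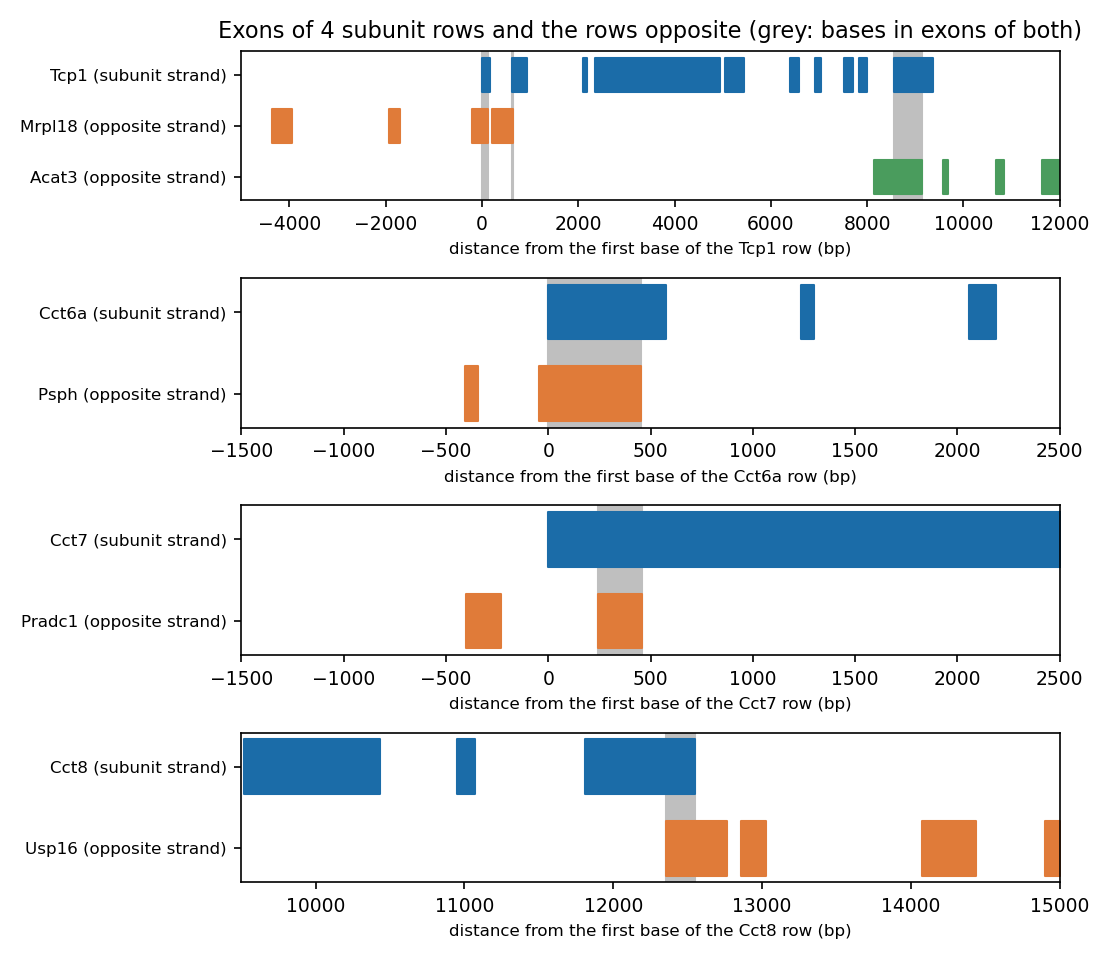
Exons of the 4 subunits with an opposite overlap (blue) and of the genes opposite them (orange and green), by distance from the first base of the subunit's row in bp. Grey bands mark bases in exons of both: 571 bp for Acat3 and 141 bp for Mrpl18 in Tcp1, 452 bp for Psph in Cct6a, 214 bp for Pradc1 in Cct7 and 192 bp for Usp16 in Cct8.

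Some of the subunits lie head to head with a gene on the other strand. Whether that arrangement bears on their counts was not tested. The 300-base windows around the start (RefSeq, GRCm38.p6) of 3 such subunits are given, each on the strand of the subunit, with bases that belong to an exon of the gene on the other strand in capitals:
Tcp1, chr17:12916079-12916378, plus strand, opposite Mrpl18: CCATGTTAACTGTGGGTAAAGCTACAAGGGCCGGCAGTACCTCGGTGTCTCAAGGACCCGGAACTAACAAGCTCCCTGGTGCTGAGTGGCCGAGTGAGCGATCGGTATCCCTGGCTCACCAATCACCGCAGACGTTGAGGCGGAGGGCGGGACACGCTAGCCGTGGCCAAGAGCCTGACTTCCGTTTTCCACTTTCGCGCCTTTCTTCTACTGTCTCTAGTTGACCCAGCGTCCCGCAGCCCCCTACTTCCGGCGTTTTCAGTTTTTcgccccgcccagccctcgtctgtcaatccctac
Cct6a, chr5:129787106-129787405, plus strand, opposite Psph: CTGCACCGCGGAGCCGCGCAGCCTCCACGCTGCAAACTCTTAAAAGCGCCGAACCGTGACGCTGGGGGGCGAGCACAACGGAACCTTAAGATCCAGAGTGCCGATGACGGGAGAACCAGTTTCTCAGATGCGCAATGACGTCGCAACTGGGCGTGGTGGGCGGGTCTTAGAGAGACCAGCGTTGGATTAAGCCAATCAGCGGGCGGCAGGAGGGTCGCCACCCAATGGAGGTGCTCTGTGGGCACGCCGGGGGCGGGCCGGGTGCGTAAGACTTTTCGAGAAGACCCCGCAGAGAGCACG
Cct5, chr15:31601797-31602096, minus strand, opposite Fam173b: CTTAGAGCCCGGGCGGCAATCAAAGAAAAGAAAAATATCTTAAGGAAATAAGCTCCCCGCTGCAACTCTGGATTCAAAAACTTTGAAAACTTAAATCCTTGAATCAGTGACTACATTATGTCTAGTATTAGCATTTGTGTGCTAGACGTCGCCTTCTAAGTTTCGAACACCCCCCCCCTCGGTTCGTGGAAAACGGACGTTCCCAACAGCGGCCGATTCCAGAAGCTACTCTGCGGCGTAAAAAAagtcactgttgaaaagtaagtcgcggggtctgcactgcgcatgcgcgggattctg
In Cct6a all 300 bases lie in exons of Psph, in Tcp1 267 lie in exons of Mrpl18, and in Cct5 245 lie in exons of Fam173b, which begins 4 bp from Cct5 and shares no exon base with it. Matches to CCAAT on either strand were found in 4 of the 9 windows of the subunits (Tcp1, Cct3, Cct6a and Cct7; Cct2 and Cct5 have 2 windows each, and none is given for Cct4), against 37.4% of 32851 windows of that length. The core of the heat shock element, GAANNTTC (a sequence that reads the same on both strands), was found in 1 of the 9, the second window of Cct2, against 7.86% of windows. TATAAA was found in 0 of the 9, against 13.6%. The motifs do not overlap each other in letters, and a match is a description of these windows only.

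The genes opposite were mostly denser in counts than the subunits. Per kb of exon, Acat3 had 5396, 5204, 5455 and 3706 counts against 599, 546, 578 and 399 for Tcp1. The log2 ratio was 3.17, 3.25, 3.24 and 3.21 (mean 3.22 ± 0.0351, SD, n = 4), a 9.31-fold difference that was positive in 4 of 4 libraries (exact two-sided sign-flip test, p = 0.13). In raw counts, with no division by length, the mean log2 ratio was 2.12. No smaller sign-flip p is possible from 4 libraries, and it stayed 0.13 after Benjamini-Hochberg adjustment over the 4 pairs. Of the 4 pairs this ratio varied least between libraries.

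Psph had 2806, 2885, 2963 and 2200 counts, where Cct6a had 156, 124, 97 and 119. Per kb the log2 ratio was 3.91, 4.28, 4.67 and 3.95 (mean 4.199 ± 0.354, SD, n = 4; exact p = 0.13). Pradc1, which codes for a protein with a protease-associated domain, had 165, 167, 160 and 90 counts, and its log2 ratio per kb over Cct7 was 1.58, 1.90, 2.16 and 1.36 (mean 1.75 ± 0.352, SD, n = 4; exact p = 0.13). In raw counts Pradc1 and Cct7 were nearly level (mean log2 ratio 0.016), so that difference rests on exon length. Both ratios per kb were highest in replicate 3, where Cct6a was at its lowest and Cct7 had 119 counts.

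Usp16 went the other way. It had 241, 248, 215 and 188 counts, and per kb its log2 ratio over Cct8 was -1.80, -1.59, -1.55 and -1.26 (mean -1.55 ± 0.223, SD, n = 4; exact p = 0.13). In raw counts, with no division by length, the mean log2 ratio was 0.064 (exact p = 0.625), so its sign rests on the 9454 bp of Usp16 exons against 3088 bp for Cct8. The second gene opposite Tcp1, Mrpl18, had 27, 20, 17 and 15 counts, far under those of Tcp1. From which of the paired genes the counted transcripts came was not tested.

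**Figure D3:**
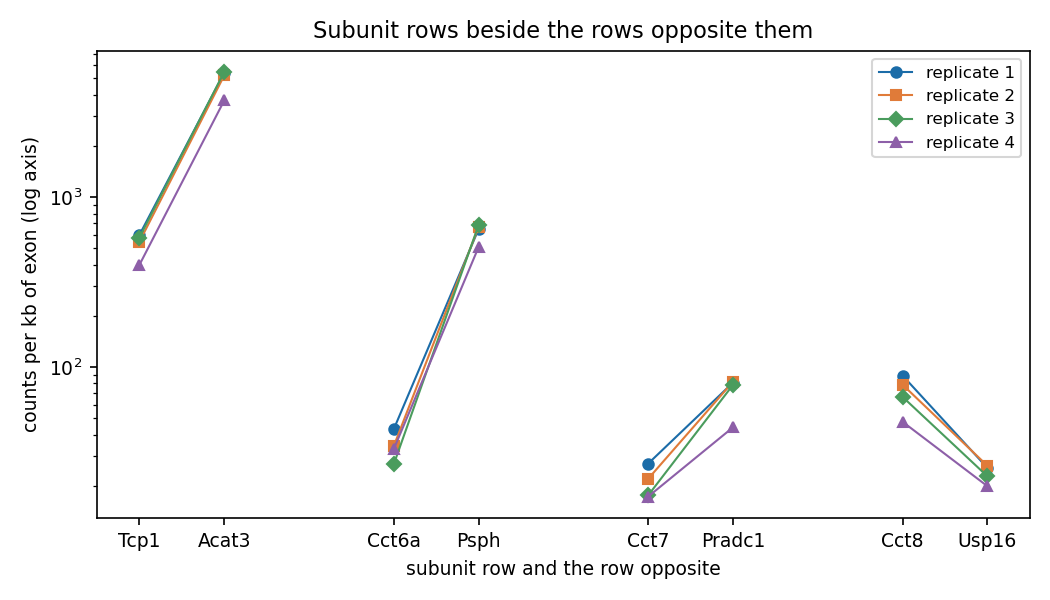
Counts per kb of exon (log axis) for the 4 subunits with an opposite overlap, each joined to the gene opposite in the same replicate. Lines rise from Tcp1, Cct6a and Cct7 to Acat3, Psph and Pradc1 in 4 of 4 libraries and fall from Cct8 to Usp16 in 4 of 4.

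Most neighbours of the 4 subunits with no exon overlap had few counts; the highest was Glmp, on the same strand as Cct3, with 50, 42, 52 and 47. Fam173b, head to head with Cct5, had 22, 26, 16 and 10, and Tsacc, 116 bp from Cct3 in the same arrangement, had 1, 1, 2 and 0. Lrrc10, the nearest gene to Cct2 on the other strand, had 0 in all 4 libraries, and so did Fam161a, the only gene within 5000 bp of Cct4. These 4 subunits were also the ones with the fewest counts of the 8. Among the 4 with an overlap, Tcp1 shares 712 bp at a mean of 2668.5 counts, Cct6a 452 bp at 124, Cct7 214 bp at 142 and Cct8 192 bp at 218. In TPM, Cct7 (15.1) lay below Cct2 (23.0) and Cct5 (22.2), which share none. Whether an overlap bears on the counts of a subunit was not tested.

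Between replicates, no member passed the test for variation beyond genes of like abundance. All 9 were tested with edgeR's goodness of fit, and 0 of 9 passed at a Benjamini-Hochberg adjusted p under 0.05, where 23 of 5064 genes (0.454%) did. At an unadjusted p under 0.05 it was 1 of 9, against 260 genes (5.13%). That gene was Cct2, the one with 45 counts in replicate 3 and 118 in replicate 1. Its edgeR p was 0.00638 before and 0.414 after Benjamini-Hochberg adjustment. Tcp1 and Acat3 had edgeR adjusted p-values of 1, with unadjusted 0.867 and 0.762. The count of 0 members called held with DESeq2 size factors, with a common dispersion, with no filter and without each replicate in turn.

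Replicate 3 nevertheless split the members. CPM, the counts scaled to each library's total, were lowest there for Cct2 (51.9, 46.9, 20.4 and 35.8), Cct3 (33.9, 35.0, 17.7 and 29.7), Cct4 (49.7, 35.0, 32.2 and 38.6) and Cct5 (48.9, 40.7, 26.8 and 47.6). That is 4 of the 4 subunits with no overlap, against 59.2% of the 1376 genes with no opposite overlap and a mean of at least 20 counts. Cct6a (68.7, 58.7, 44.0 and 66.6) and Cct7 (80.6, 70.5, 54.0 and 65.5) were lowest there too. Among 2983 genes with an overlap the share lowest in replicate 3 was 18.3%, and over all 4359 it was 31.2%.

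Tcp1 (1325, 1300, 1320 and 1124 CPM), Acat3 (5570, 5777, 5803 and 4866 CPM) and Cct8 (121, 115, 93.5 and 82.3 CPM) were lowest in replicate 4 instead. CPM are shares of all counts, including those of the genes CT010467.1 and Gm42418. The 8 subunits held 0.178%, 0.170%, 0.161% and 0.149% of all counts, lowest in replicate 4. Outside those genes they held 0.1865%, 0.176%, 0.169% and 0.177%, lowest in replicate 3. The lowest library of each single gene, and the shares of genes lowest in replicate 3, were not counted outside them. After TMM scaling, Tcp1 and Acat3 were 0.075 and 0.094 above their own log2 means in replicate 3, while Cct2, Cct3 and Cct5 were 0.82, 0.65 and 0.56 below. Cct4 was 0.24 below in replicate 3 and 0.19 below in replicate 2. The scaled values are drawn in the plot of deviations. The pattern was seen before it was counted, and each single gene stayed under the edgeR threshold.

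**Figure D4:**
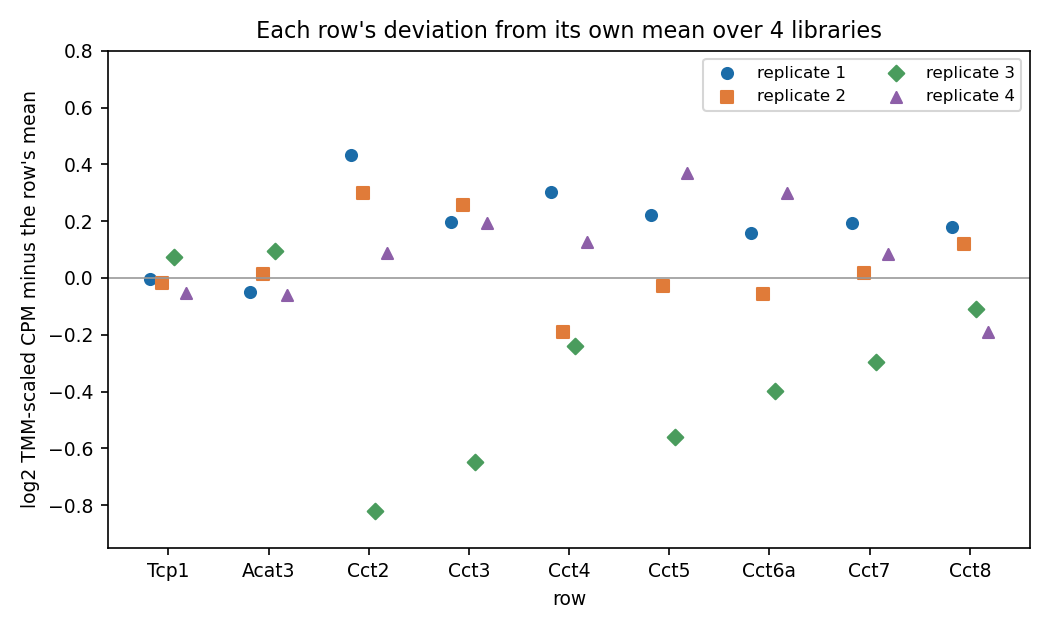
Log2 TMM-scaled CPM of each member minus its own mean over 4 libraries, with 1 symbol per replicate. Replicate 3 is the lowest point for Cct2 to Cct7 and the highest for Tcp1 and Acat3.

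The share of counts in genes without an opposite overlap also differed between libraries, at 7.53%, 6.88%, 5.48% and 6.67% in replicates 1 to 4. The 4 subunits without an overlap summed to 184, 158, 97.1 and 152 CPM. As CPM computed over genes without an overlap alone, the same sum was 2449, 2291, 1771 and 2275, with a coefficient of variation of 13.4% in place of 24.8%. Counting error alone gives 11.1%, 12.8%, 11.1% and 10.8% for Cct2, Cct3, Cct4 and Cct5 at their mean counts. On that scale their own coefficients were 26.2%, 18.1%, 10.6% and 15.7%, against 36.0%, 27.3%, 19.8% and 24.7% in CPM, and replicate 3 was still lowest in the sum. Cct2, Cct3 and Cct5 were lowest there one by one as well, but Cct4 was not: it stood at 661, 509, 588 and 579, lowest in replicate 2. Tcp1 and Acat3 did the reverse, from 7.57% and 7.96% in CPM to 16.8% and 18.2%. The scales differ only by division by the share of counts in genes without an overlap, so these shifts are arithmetic. In a fit of genes without an overlap alone, 3 of 1793 were called and 0 of these 4, and Cct2 had an unadjusted edgeR p of 0.113 (adjusted p = 0.996). Whether the share of overlapping genes has a part in the dip of replicate 3 was not tested.

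The rows of the complex were more uneven than 14 rows of the 20S proteasome core. Those are Psma1 to Psma7 and Psmb1 to Psmb7, and the immunoproteasome subunits are not among them. Whether these 14 enter the complex in equal number in Th2 cells was not tested. Within each library, the SD over the 8 subunits of log2(TPM + 1) was 1.63, 1.68, 1.89 and 1.61, and over 14 core proteasome subunits 0.935, 0.795, 0.787 and 0.858. The difference was 0.69, 0.88, 1.10 and 0.75 (mean 0.86 ± 0.182, SD, n = 4; exact two-sided sign-flip p = 0.13, the smallest possible). It rested on Tcp1. Without that subunit the CCT value was 0.851 ± 0.0672 and the difference 0.0067 ± 0.116 (exact p = 1.0), positive in 2 of 4 libraries. Tcp1 was left out after it was seen to be the highest row, while the proteasome kept its own highest, Psma4. Leaving out such a row on the CCT side alone lowers that side, so this p cannot show that the sets are equally uneven. With only subunits that share no exon base with the other strand, 4 of CCT and 11 of the proteasome, the difference was 0.031 ± 0.0520 (SD, n = 4; exact p = 0.375). The 14 proteasome rows together had only 207 to 385 counts per library, so counting error adds to their SD. The highest proteasome subunits were Psma4 (24.7 ± 7.06 TPM), which has an opposite overlap, and Psma2 (13.9 ± 6.35) and Psma6 (13.3 ± 5.70; SD, n = 4), which have none.

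**Figure D5:**
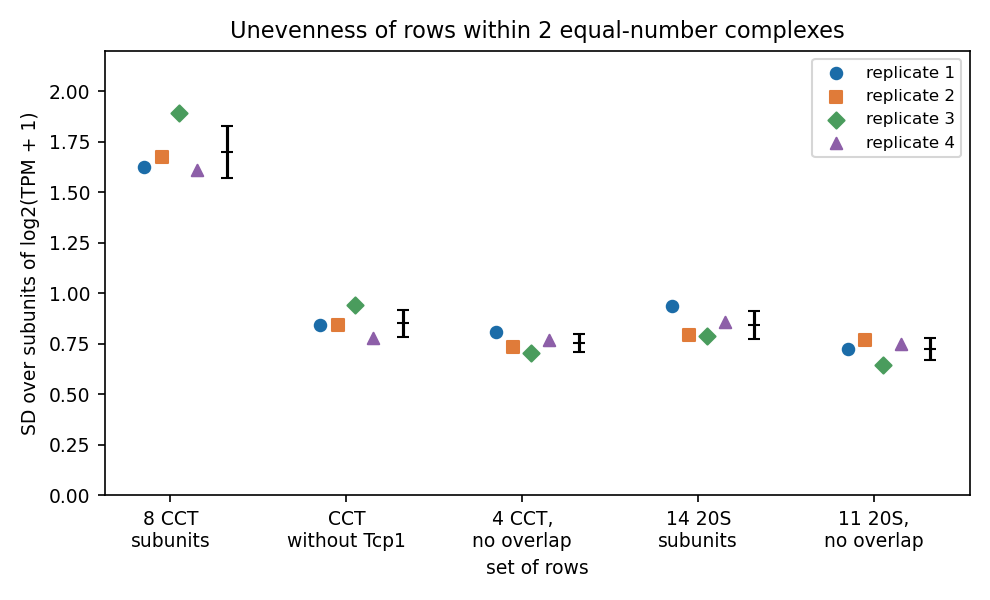
SD over the subunits of a complex of log2(TPM + 1), with 1 symbol per replicate and the mean ± SD of 4 libraries at the right of each set. The 8 CCT subunits sit between 1.61 and 1.89, and the 4 other sets at 0.940 or below.

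Genes that work with CCT were detected at lower levels by the counts assigned to them. Of 6 prefoldin subunits 6 reached 1 TPM in all libraries, led by Pfdn1 (11.3 ± 4.64), Pfdn2 (6.82 ± 1.79) and Pfdn5 (6.15 ± 2.46 TPM; SD, n = 4), with a list median of 5.15 TPM beside 22.6 for the CCT subunits and 8.47 for all 6730 genes that reached 1 TPM in all libraries. Of 5 cofactors 3 did: Pdcd5 (6.29 ± 0.635), Pdcl3 (2.24 ± 0.745) and Txndc9 (1.52 ± 0.237), the last pair being phosducin-like regulators of CCT folding. Pdcl2, known from germ cells, had 0 counts in all 4 libraries.

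Of 19 genes for CCT substrates 16 reached 1 TPM in all libraries. Actb and Actg1, the cytoplasmic actins, had 364, 302, 246 and 315, and 108, 94, 56 and 93 counts, and Tubb5, a beta-tubulin of lymphocytes, 214, 156, 119 and 181. Each was lowest in replicate 3, and none of the 3 has an opposite overlap. Of the substrates with a mean of at least 20 counts, 9 of 9 were lowest in CPM in replicate 3 (5 of 5 of those without an opposite overlap), beside the 31.2% and 59.2% given above. Of proteasome subunits of that abundance it was 4 of 5, of cytosolic heat shock genes 6 of 7, and of Th2 markers 2 of 5. No prefoldin gene had that many counts. The edgeR test called 0 of the 10 substrates, 0 of the 7 proteasome genes and 0 of the 1 prefoldin gene that passed its filter.

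The other chaperonins and the cytosolic chaperones ranged widely. Hspd1 and Hspe1, the mitochondrial chaperonin and its lid, stood at 74.5 ± 13.8 and 17.8 ± 2.16 TPM (SD, n = 4), each on a gene with an opposite overlap. Mkks, Bbs10 and Bbs12, chaperonin-like genes of the Bardet-Biedl syndrome, had at most 10 counts in any library. Of 10 cytosolic heat shock genes 8 reached 1 TPM in all libraries. Hsp90ab1 led with 2168, 1652, 1391 and 1629 counts (416 ± 79.8 TPM), followed by Hsp90aa1 (52.5 ± 13.9) and Hspa8 (42.9 ± 9.97 TPM), none of which has an opposite overlap. Hsp90ab1 was near Tcp1 in mean TPM, and what sets the level of either was not tested. The inducible genes Hspa1a and Hspa1b had 0 counts apart from 1 in replicate 1 for Hspa1b.

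Profiles over the 4 libraries were also compared. By the root mean square difference of centred log2 TMM-scaled CPM, the genes of at least 100 mean counts nearest to the summed subunits were Ints11 (0.00652), Gm16796 (0.0122) and C630004M23Rik (0.0124), and those nearest to Acat3 were Gm15853 (0.00457), Inpp5e (0.00729) and Gm17484 (0.00791). All 6 have an opposite overlap, as do 2983 of 4359 genes with a mean of at least 20 counts. That share was not counted for genes of at least 100 mean counts. Within 0.1 of the summed subunits lay 816 of 1979 genes, and within 0.1 of Acat3 1083 of 1982, so 4 libraries single out no close partner. Since Tcp1 holds most of the summed counts, the first profile is largely its own.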

How the data were processed

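Each deposited table gives, for every gene, the authors' raw counts of read pairs, made per the file headers with featureCounts 1.4.6-p4 (strand setting 1, both ends mapped, exons summed by gene, GENCODE vM13, mm10). Output names in the headers point to STAR; its version is not given in the sources used here. Exon length (bp) came from the same deposited tables. GENCODE vM21 gave symbols for 50376 of 50600 genes.

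TPM and CPM were computed from the counts, and exon overlaps from the coordinates in the tables. EdgeR 4.0.16 with limma 3.58.1 in R 4.3.3 fitted an intercept-only model (trended dispersion, TMM, filterByExpr), and its goodness of fit, with Benjamini-Hochberg adjustment at 0.05, tested variation between the 4 libraries; it was tested on simulated data. DESeq2 1.42.0 gave size factors for an alternative. Ratios used a pseudocount of 0.5 counts, and exact sign flips gave their p, where 0.13 stands for 0.125 after rounding. Python 3.11.15, numpy 2.4.6, pandas 2.3.3, SciPy 1.17.1 and Matplotlib 3.10.9 were used.

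Members and lists were chosen with earlier results of these data known. Named are all members, genes sharing exon bases with them, the 3 highest of each list of related genes, and the nearest profiles; cell type markers, neighbours without overlap and other single genes were chosen after their values were seen. A count of 0 allows 3 counts, or 1.32 to 1.68 CPM. The labels call the assay total RNA, and the library protocol they name is for polyA RNA. One marker gene is not reported here.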

Additional observations from a re-analysis of the deposited data

How the results depend on the processing

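No paired analysis was possible because the libraries form 1 group. The number of genes called variable was 23; it was 32 with a common dispersion (17 shared with the 23), 15 with no filter, 7 to 20 without 1 replicate in turn (7 without replicate 4, 12 without replicate 3), and 3 among genes with no opposite overlap, where fewer genes were tested. No member was called in any of these. The log2 ratio of Usp16 over Cct8 turned from -1.55 to 0.064 in raw counts, by the removal of length; the other 3 ratios kept their sign under every alternative run, though in raw counts Acat3 over Tcp1 was 2.12 and Pradc1 over Cct7 0.016. The spread among subunits, 1.70, was 0.753 with the 4 subunits without an overlap, 0.851 without Tcp1 and 0.280 with those 4 in log2 CPM. The share of counts in the 8 subunits, 0.165%, was 0.177% outside CT010467.1 and Gm42418, 0.0539% of TPM, and 0.0378% without Tcp1. Leaving out 1 replicate gave 3.21 to 3.24 for Acat3 over Tcp1, 1.64 to 1.73 for the spread, 0.78 to 0.91 for its difference from the proteasome and 0.160% to 0.170% for the share. The alternatives without Tcp1, the test of variation among genes with no overlap alone, and the spread of 4 subunits in CPM were chosen after the data were seen. Depth limits the 7 subunits other than Tcp1, whose counts per library were 39 to 275.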
